A study of Mus musculus with 2 samples.

Results

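The mir-181 family comprises 6 miRNA genes of the mouse, Mir181a-1, Mir181a-2, Mir181b-1, Mir181b-2, Mir181c and Mir181d, chosen by gene symbol from the 1973 miRNA genes of the count tables. The material was midbrain of B6NCrl mouse embryos at day 16.5 of gestation, described as healthy. It was sequenced as small RNA with inserts below 30 nt in 2 libraries, each from a pool that mixed male and female embryos. The labels give 37 embryos for the pool of replicate 2 and no number for that of replicate 1, and they list the libraries as biological replicates. The embryos carried no labelled allele or treatment, so the libraries form 1 group and the design holds no contrast between conditions. The comparisons are therefore between the genes, between their 3 genomic clusters, and between the libraries.

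A miRNA gene is transcribed as part of a longer RNA that folds into a hairpin. The hairpin is cut to a short duplex with a 5p and a 3p arm, and an arm loaded into Argonaute pairs with target mRNAs mainly through its seed, bases 2 to 8. Genes that lie close together on 1 strand can be cut from the same primary transcript. In mice, miR-181a is known for setting the sensitivity of developing T cells to antigen, and the family is also expressed in brain, where it has been studied in neurons and astrocytes.

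The mature arms are shown because they decide which of the 6 genes a read can be told apart from. RefSeq on GRCm38.p6 lists both arms of each of the 6 genes, 12 records with 10 distinct sequences. The seed is in capitals. The 4 distinct 5p arms are:
miR-181a-5p (Mir181a-1 and Mir181a-2): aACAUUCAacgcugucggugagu
miR-181b-5p (Mir181b-1 and Mir181b-2): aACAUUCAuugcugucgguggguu
miR-181c-5p (Mir181c): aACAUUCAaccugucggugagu
miR-181d-5p (Mir181d): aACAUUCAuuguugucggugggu

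All 4 carry the seed ACAUUCA, and no other mature miRNA among the 1679 names in that table does. Counted from 1 at the 5′ end, miR-181d-5p differs from miR-181b-5p by C12U and is shorter by 1 base. miR-181c-5p equals miR-181a-5p with the G at position 11 removed. Each of miR-181c-5p and miR-181d-5p comes from 1 gene, whereas miR-181a-5p and miR-181b-5p are each made by a pair of genes on different chromosomes.

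The 3p arms are different at every gene. With the seed in capitals they are:
miR-181a-1-3p: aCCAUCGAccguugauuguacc
miR-181a-2-3p: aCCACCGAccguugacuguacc
miR-181b-1-3p: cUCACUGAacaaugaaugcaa
miR-181b-2-3p: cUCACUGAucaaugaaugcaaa
miR-181c-3p: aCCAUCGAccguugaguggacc
miR-181d-3p: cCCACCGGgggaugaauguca

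By 3p seed, miR-181a-1-3p groups with miR-181c-3p (CCAUCGA) and miR-181b-1-3p with miR-181b-2-3p (UCACUGA), while miR-181a-2-3p (CCACCGA) and miR-181d-3p (CCACCGG) each stand alone. Relative to miR-181a-1-3p, miR-181a-2-3p carries U5C and U16C. Relative to the same arm, miR-181c-3p carries U16G and U19G. miR-181b-2-3p carries A9U relative to miR-181b-1-3p and is longer by 1 base.

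The genes lie in 3 pairs on assembly mm10, placed and annotated with GENCODE M21. On chromosome 8, minus strand, Mir181c (84178873 to 84178961) and Mir181d (84178716 to 84178787) are 85 bases apart within an intron of Nanos3, a gene of germ cells that runs on the same strand. On chromosome 1, plus strand, Mir181a-1 (137966455 to 137966541) and Mir181b-1 (137966639 to 137966718) are 97 bases apart. Both overlap an exon of the long non-coding RNA A430106G13Rik on the same strand. It starts at 137966531, which is upstream of Mir181b-1 but in the 3′ end of Mir181a-1, past the mature arms. Both genes also lie in an intron of Gm4258 on the same strand and in an intron of Gm26936 on the opposite strand. On chromosome 2, plus strand, Mir181a-2 (38852735 to 38852810) and Mir181b-2 (38853830 to 38853918) are 1019 bases apart. They lie in an intron of Nr6a1, which runs on the opposite strand. Mir181b-2 also overlaps an exon of Gm44144 on the opposite strand, and no annotated gene other than the miRNAs overlaps them on their own strand.

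Because the 5p arm is common to 2 loci, the hairpins of the copied genes are shown with their longest shared run in capitals:
Mir181a-1: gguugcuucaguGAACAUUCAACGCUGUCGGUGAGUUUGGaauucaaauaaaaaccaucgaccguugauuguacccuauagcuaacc
Mir181a-2: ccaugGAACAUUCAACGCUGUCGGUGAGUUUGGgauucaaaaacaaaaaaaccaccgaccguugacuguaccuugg
Mir181b-1: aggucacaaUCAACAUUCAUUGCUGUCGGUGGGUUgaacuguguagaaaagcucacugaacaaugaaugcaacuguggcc
Mir181b-2: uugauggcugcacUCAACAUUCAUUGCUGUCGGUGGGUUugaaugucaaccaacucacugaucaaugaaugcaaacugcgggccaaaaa

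The run is 28 bases in the mir-181a hairpins and holds all 23 bases of miR-181a-5p. It is 26 bases in the mir-181b hairpins and holds all 24 bases of miR-181b-5p. A read inside such a run has at least 2 places in the genome. The deposited tables list reads that mapped to several places in a row of their own that names no gene. They numbered 4391928 in replicate 2 and 4816290 in replicate 1. These are 28.1 and 25.4 times the reads counted to the 6 genes. Which of them came from mir-181 genes cannot be read from the tables, and no source states whether some were also counted to genes. Reads counted to both mir-181b genes could be no more than the 38 and 67 reads of Mir181b-1 in replicates 2 and 1. For the mir-181a genes the same bound is the 1318 and 1343 reads of Mir181a-2 in replicates 2 and 1. The counts of Mir181a-1, Mir181a-2, Mir181b-1 and Mir181b-2 are uncertain as measures of miR-181a-5p and miR-181b-5p, and a gene's count does not separate its arms.

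Values are reads on the strand of the gene, scaled to 1000000 such reads over all miRNA genes (CPM). These totals were 5312642 reads in replicate 2 and 6151299 in replicate 1. The 6 genes together held 156388 reads in replicate 2, or 2.94%, and 189912 in replicate 1, or 3.09%. Their 95% Wilson intervals ran from 2.93 to 2.96% and from 3.07 to 3.10%. Their mean share was 3.02% ± 0.10 (SD, n = 2). Intervals cover counting error within a library only, not spread between pools. They take reads as independent molecules, which reads without molecular identifiers need not be, so they may be too narrow. In pooled tissue, fewer cells of a type and less RNA per cell cannot be told apart. All 6 genes had 10 or more reads in both libraries, which 411 of the 1973 genes (20.8%) did.

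The chromosome 8 genes had the highest counts of the family. Mir181c had 82811 reads in replicate 2 and 102690 in replicate 1, which is 15588 and 16694 CPM with a mean of 16141 ± 782 CPM (SD, n = 2). It ranked 14 among all miRNA genes in each library. Mir181d had 37521 and 44472 reads in replicates 2 and 1. This is 7063 and 7229.7 CPM with a mean of 7146 ± 118 CPM, at rank 27 in each library. Both genes make 5p arms that no other gene of the RefSeq table makes, so these counts can hold both of their arms.

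In the chromosome 1 pair, Mir181a-1 was high and Mir181b-1 had few reads. Mir181a-1 had 29249 reads in replicate 2 and 32847 in replicate 1, which is 5506 and 5339.85 CPM with a mean of 5423 ± 117 CPM (SD, n = 2) at rank 37. Mir181b-1, whose hairpin starts 97 bases downstream, had 38 and 67 reads in replicates 2 and 1. That is 7.15 and 10.9 CPM with a mean of 9.02 ± 2.64 CPM, at rank 314. No miRNA gene of the family was lower.

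In the chromosome 2 pair the order was turned round. Mir181a-2 had 1318 reads in replicate 2 and 1343 in replicate 1, or 248 and 218 CPM with a mean of 233 ± 21.0 CPM (SD, n = 2), at rank 169. Mir181b-2 had 5451 and 8493 reads in replicates 2 and 1. These are 1026 and 1381 CPM with a mean of 1203 ± 251 CPM, at rank 87. In this pair the mir-181b gene stood above the mir-181a gene in both libraries.

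From high to low the order of counted reads was Mir181c, Mir181d, Mir181a-1, Mir181b-2, Mir181a-2 and Mir181b-1, in both libraries. The 5p arms of Mir181c and Mir181d come from 1 gene each, while each 5p arm of the others comes from 2. The counts of the others may therefore lack 5p reads, and the order need not hold for the mature miRNAs. The lower library of each gene lay above the higher library of the next gene in every step. The narrowest step was Mir181d over Mir181a-1 at 1.32-fold, a difference of 1723 CPM against SDs of 118 and 117 CPM. The widest was Mir181a-2 over Mir181b-1 at 25.8-fold. Hairpins ranged from 72 to 89 bases, and the order was the same per base of hairpin. With 2 libraries, permuting values between a pair of genes could not reach 0.05, so no such test was run.

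**Figure D1:**
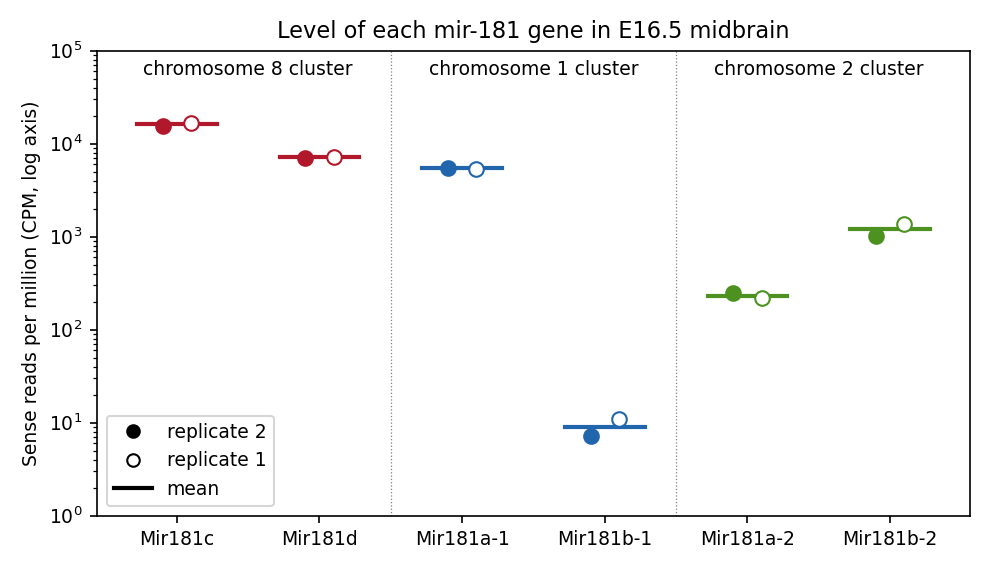
Sense-strand level (CPM) of each mir-181 gene on a log axis, in replicate 2 (filled) and replicate 1 (open), with the mean of the 2 as a bar and the genes grouped by cluster. Means run from 16141 CPM for Mir181c to 9.02 CPM for Mir181b-1. The values of no 2 genes overlap, but the narrowest gap, Mir181d over Mir181a-1 at 1.32-fold, is smaller than the spread of Mir181b-1 or Mir181b-2 between libraries.

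Over clusters, the chromosome 8 pair held 76.9% of the family's reads in replicate 2 and 77.5% in replicate 1, with Wilson bounds of 76.7 to 77.2 and 77.3 to 77.7 (95%). The chromosome 1 pair held 18.7% (18.5 to 18.9) in replicate 2 and 17.3% (17.2 to 17.5) in replicate 1. The chromosome 2 pair held 4.33% (4.23 to 4.43) and 5.18% (5.08 to 5.28) in replicates 2 and 1. As means over the libraries these were 77.2% ± 0.39, 18.0% ± 0.99 and 4.75% ± 0.60 (SD, n = 2). The chromosome 8 pair exceeded the chromosome 1 pair by 4.11-fold in replicate 2 and 4.47-fold in replicate 1. It exceeded the chromosome 2 pair by 17.8-fold and 14.96-fold in replicates 2 and 1. The gaps between clusters were far wider than the SD of any share. However, the shares leave out reads that could not be placed, which touches the chromosome 1 and 2 pairs through their common 5p arms. An SD over libraries does not cover a loss that both libraries share.

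**Figure D2:**
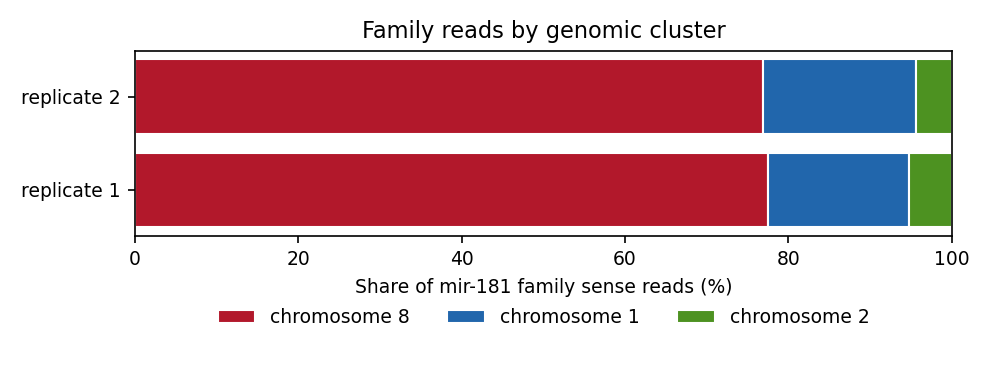
Share of the sense reads of the 6 mir-181 genes held by each genomic cluster, as stacked bars for replicate 2 (top) and replicate 1 (bottom). The chromosome 8 pair takes 76.9% and 77.5% of the counted reads. The row of reads that mapped to several places is not in these shares.

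Within a cluster the genes differed by very unequal amounts. Mir181c exceeded Mir181d by 2.21-fold in replicate 2 and 2.31-fold in replicate 1, a mean log2 ratio of 1.17 ± 0.05 (SD, n = 2, with 0.5 reads added to each count). Mir181a-1 exceeded Mir181b-1 by 759.7-fold in replicate 2 (exact binomial 95% interval 561 to 1088) and 487-fold in replicate 1 (386 to 633), a log2 ratio of 9.25 ± 0.45. The folds have the 0.5 reads added and the intervals are from counts without them. The wide intervals reflect the 38 and 67 reads of Mir181b-1. Mir181a-2 stood at 0.24 and 0.16 times the reads of Mir181b-2 in replicates 2 and 1, a log2 ratio of -2.35 ± 0.43. Mir181a-1, Mir181b-1, Mir181a-2 and Mir181b-2 each share a mature arm with another locus, so their counts may lack reads of that arm. The ratios within these pairs need not hold for the mature miRNAs. Mir181c and Mir181d share no arm with another locus.

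Other neighbouring miRNA genes give the scale of these ratios. In all, 63 other pairs lay on 1 strand within 1000 bases and had 10 or more reads for both genes in both libraries. Pairs in longer clusters share genes, so they are not independent and no test was made. Their log2 ratios had a median size of 2.86, from 0.07 to 9.50. The ratio of Mir181c to Mir181d was exceeded in size by 50 of the 63, that of Mir181a-2 to Mir181b-2, which lie 1019 bases apart and so just outside that distance, by 38, and that of Mir181a-1 to Mir181b-1 by 1, which was Mir20a with Mir19b-1 at 9.50. The minimum of 10 reads leaves out pairs with a wide ratio. A further 63 pairs within 1000 bases had at least 1 read and a gene under that minimum. Of these, 52 were wider than Mir181c with Mir181d, 41 than Mir181a-2 with Mir181b-2 and 21 than Mir181a-1 with Mir181b-1, up to a size of 15.8, a value set by the 0.5 reads added where a gene had none or few. Just below the Mir181a-1 pair stood Mir487b with Mir539 at 8.89. Mir144 with Mir451a (size 1.08) and Mir15a with Mir16-1 (1.20) bracketed Mir181c and Mir181d. Mir106a with Mir18b (2.35) and Mir758 with Mir329 (2.49) bracketed the chromosome 2 pair.

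The genes that share an arm with another locus also differed between the loci. Mir181a-1 exceeded Mir181a-2 by 22.2-fold in replicate 2 (exact binomial 95% interval 21.0 to 23.5) and 24.4-fold in replicate 1 (23.2 to 25.8), a log2 ratio of 4.54 ± 0.10 (SD, n = 2). Mir181b-2 exceeded Mir181b-1 by 142-fold in replicate 2 (104 to 203) and 126-fold in replicate 1 (99.7 to 164), a log2 ratio of 7.06 ± 0.12. In counted reads, the higher mir-181a gene was thus on chromosome 1 and the higher mir-181b gene on chromosome 2. A read inside the common run cannot be assigned to a locus, so which copy makes more of the common 5p arm cannot be told. If only reads with 1 place were counted, which the layout of the tables implies but no source states, these ratios come from reads that reach past the common run or from the 3p arms.

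Among genes with both arms in the RefSeq table, 13 other pairs of loci shared exactly 1 arm with each other alone and had 10 or more reads in both libraries. Their log2 ratios had a median size of 0.81, from 0.24 for Mir125b-2 over Mir125b-1 to 4.70 for Mir194-2 over Mir194-1. That of Mir181a-1 over Mir181a-2 was exceeded by 1 of the 13, and that of Mir181b-2 over Mir181b-1 by 0 of them. In 5 further pairs a gene missed that minimum, and 1 of these was wider than the mir-181a pair and 0 than the mir-181b pair, with a highest size of 5.31. In all, 53 genes had exactly 1 arm in common with another locus, with a median of 43.96 CPM. Of these 53, Mir181a-1 had the highest level, ahead of Mirlet7f-2 at 3219 CPM and Mir125b-2 at 2729.5 CPM, while Mir181b-2 ranked 8, Mir181a-2 ranked 21 and Mir181b-1 ranked 31. Among 513 genes with no arm in common with another locus, whose median was 2.64 CPM, Mir181c ranked 12 and Mir181d ranked 21. A further 16 genes had both arms in common with another locus. Their median was 0 CPM, and 3 of them had 10 or more reads in both libraries.

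**Figure D3:**
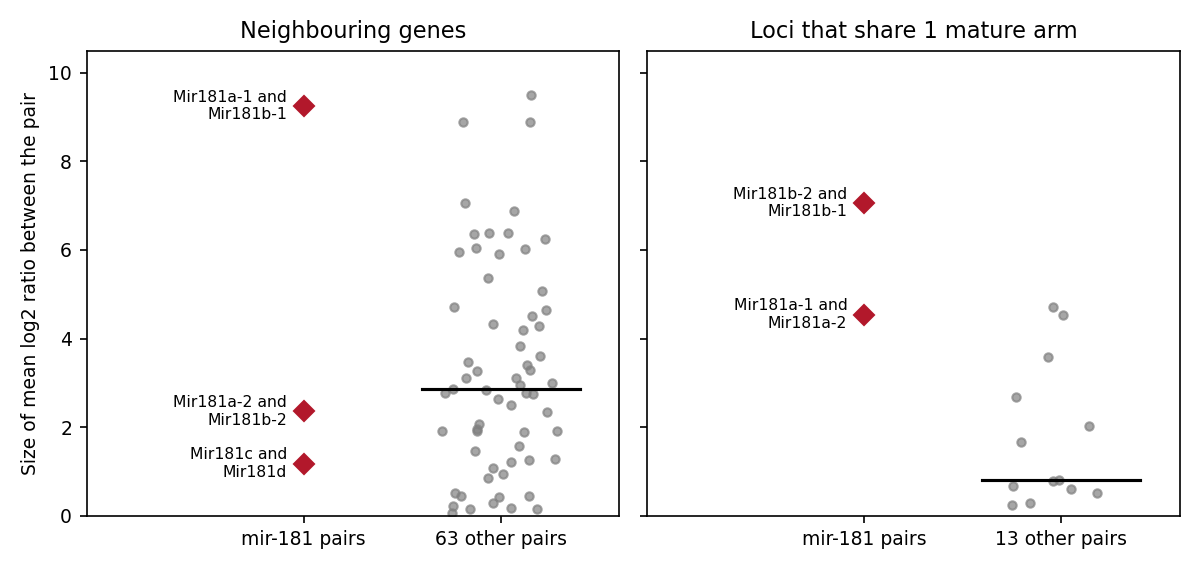
Size of the mean log2 read ratio between the members of a pair, for neighbouring genes (left) and for loci that share 1 mature arm (right), with mir-181 pairs as diamonds, other pairs as dots spread sideways for view and their median as a line. Mir181a-1 with Mir181b-1 (9.25) and Mir181b-2 with Mir181b-1 (7.06) lie near or beyond the top of the other pairs shown, all with 10 or more reads for both genes in both libraries, and Mir181c with Mir181d (1.17) lies below their median.

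Between the libraries, the 6 genes stood in replicate 2 at 0.66 to 1.14 times their replicate 1 level. A two-sided exact binomial test, adjusted over all 411 genes tested by the Benjamini-Hochberg method, was passed by 5 of them. Of those 411 genes 195 passed (47.4%), 75 higher in replicate 2 (18.2%) and 120 higher in replicate 1 (29.2%). With TMM scaling, 185 of the 411 passed, 90 higher in replicate 2 and 95 in replicate 1. The members' count is read against that background. The test compares the 2 libraries and covers counting error only, so a small difference at high depth passes it. Nothing in the labels distinguishes the libraries as conditions.

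Of the 5 mir-181 genes that passed, Mir181b-2 showed the largest difference. It was at 0.74 times its replicate 1 level in replicate 2 (exact interval 0.72 to 0.77, log2 ratio -0.43, adjusted p = 1.36e-65 by the exact binomial test). Mir181c stood at 0.93 times its replicate 1 level (0.93 to 0.94, log2 ratio -0.10, adjusted p = 7.75e-48 by the same exact test). Mir181a-2 was higher in replicate 2 by 1.14-fold (1.05 to 1.23, exact test adjusted p = 0.00275) and Mir181a-1 by 1.03-fold (1.01 to 1.05, exact test adjusted p = 0.000434). Mir181d had a log2 ratio of -0.03 (exact test adjusted p = 0.00233), which turned to 0.01 with TMM scaling and then did not pass (adjusted p = 0.256). Mir181b-1, at 38 and 67 reads in replicates 2 and 1, had a log2 ratio of -0.60 and did not pass (exact test adjusted p = 0.0791).

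The exact test of edgeR, run with the biological coefficient of variation (BCV) set by hand to allow for spread between pools, passed 0 of the 6 genes at a BCV of 0.1 or 0.2, where it passed 9 (2.19%) and 6 (1.46%) of the 411. At an unadjusted p below 0.05 there was 1 of the 6 at a BCV of 0.1, beside 40 of the 411 (9.73%), and 0 at 0.2, beside 8 (1.95%). The median log2 ratio of the 6 genes was -0.07, beside -0.06 over all 411. The pair ratios moved between libraries by 0.07 (log2) for Mir181c and Mir181d, 0.61 for Mir181a-2 and Mir181b-2 and 0.64 for Mir181a-1 and Mir181b-1, against a median of 0.20 over the 63 other pairs.

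**Figure D4:**
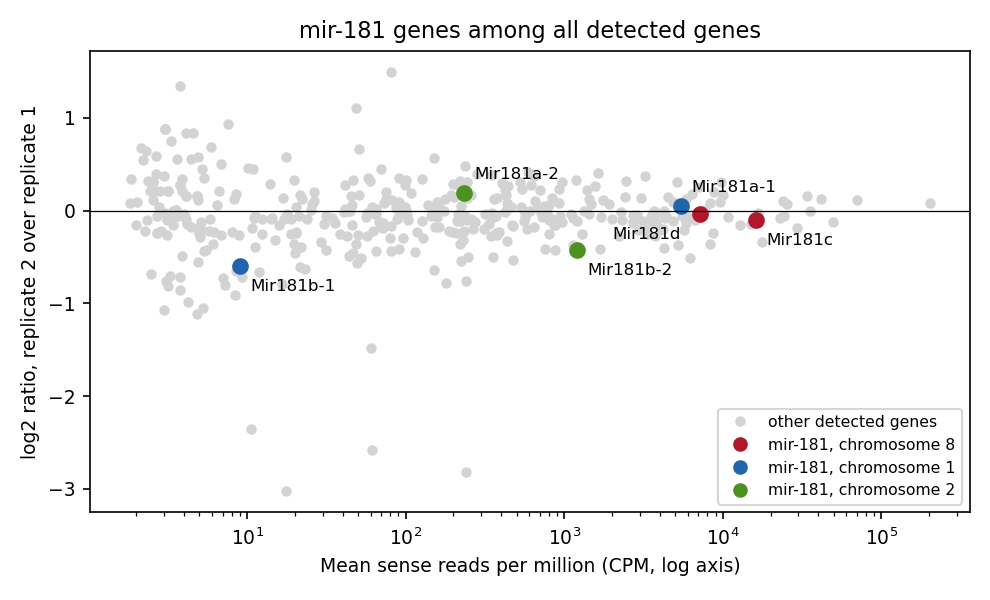
Log2 ratio of replicate 2 over replicate 1 against mean level (log axis) for the 411 genes with 10 or more reads in both libraries, with mir-181 genes coloured by cluster. The 6 genes lie between -0.60 (Mir181b-1) and 0.18 (Mir181a-2), inside the cloud of other genes.

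Marker lists set the family beside the tissue. Neuronal miRNAs, of which 19 were analysed and 17 detected, held 6.66% of miRNA reads in replicate 2 and 6.72% in replicate 1, led by Mir149 at 25498 CPM. The median of the 19 was 405 CPM, but Mir124a-1, Mir124a-2 and Mir124a-3 stood at 5.04, 3.86 and 0.54 CPM. The row of reads that mapped to several places is not in these shares, so they are no full measure of neuronal miRNA. Of these 9 were higher in replicate 2, 3 were higher in replicate 1 and 5 did not pass. Endothelial and mural miRNAs held 3.08% and 2.93% in replicates 2 and 1, led by Mir126a at 23939 CPM, with 1 of 3 passing in each direction. MiRNAs of blood cells, of interest because mir-181 acts in lymphocytes, held 0.055% and 0.048% in replicates 2 and 1. There all 5 analysed genes were detected, from 67.5 CPM to 151 CPM for Mir451a, with 2 higher in replicate 2 and 0 in replicate 1. The epithelial mir-200 list held 0.012% in replicate 2 and 0.066% in replicate 1, with 5 of 5 genes lower in replicate 2, led in level by Mir429 at 239 CPM. With the BCV set to 0.2, the exact test of edgeR still passed all 5 mir-200 genes (highest adjusted p = 0.0468, Mir200c), beside 6 of all 411 genes. At a BCV of 0.1 it passed no neuronal gene among the 9 higher in replicate 2 (lowest adjusted p = 0.552, Mir129-2). The mir-200 list moved in the direction of Mir181b-2, Mir181c, Mir181d and Mir181b-1, while Mir181a-1 and Mir181a-2 went the other way. Lower in replicate 2 was also the direction of 120 of the 195 genes that passed the exact binomial test. Any part of the mir-200 source in the mir-181 differences was not tested.

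For each member, the gene nearest in log2(CPM + 1) over the 2 libraries was taken as the most alike in level. These were Mir26b for Mir181c (16696 ± 175 CPM, distance 0.09), Mir411 for Mir181d (6986 ± 74.4 CPM, 0.05) and Mir151 for Mir181a-1 (5500.3 ± 155 CPM, 0.08). They were Mir92-1 for Mir181b-2 (1130.1 ± 205 CPM, 0.13), Mir16-2 for Mir181a-2 (242 ± 16.2 CPM, 0.09) and Gm23134 for Mir181b-1 (9.25 ± 3.24 CPM, 0.08). SDs are over n = 2 libraries, and the closeness is one of level alone.

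No read lay on the strand opposite any of the 6 genes in either library. A count of 0 allows up to 3 reads, or 0.56 CPM in replicate 2 and 0.49 CPM in replicate 1, counting error only. Over all miRNA genes the opposite strand held 135457 reads in replicate 2 and 161438 in replicate 1. Counting reads on either strand raised the number of genes tested only from 411 to 422. The lack of opposite reads is therefore not shown to be particular to the family.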

How the data were processed

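Small RNA of E16.5 mouse midbrain was sequenced in 2 libraries of 1 group. The deposited values are raw counts of reads per miRNA gene, on mm10 with GENCODE M4 per the deposited description of the tables. The aligner, counter and versions are not given in the sources used here. Rows that name no gene held 55.8% of all reads in replicate 2 and 54.9% in replicate 1, with reads at several places at 36.5% and 35.3%, and stayed out of totals and tests. Genes were named and placed with GENCODE M21 by identifier without version (1894 matched, 79 not). The version of Mir181c differs between the tables and M21, so its ends are those of M21.

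Sense counts were scaled to CPM. Libraries were compared by a two-sided exact binomial test, Benjamini-Hochberg adjusted with a threshold of 0.05 over genes with 10 or more reads in both. The test was tried on simulated counts that held counting error only. That trial says nothing of how it behaves with spread between pools. Alternatives used edgeR 4.0.16 in R 4.3.3 (TMM, RLE, exact tests). Other steps used Python 3.11.15, scipy 1.17.1, pandas 2.3.3 and matplotlib 3.10.9. Sequences are from RefSeq, where mature arms matched for 6 genes and hairpins for 5, and shared arms cover genes matched by symbol. Named genes are the 6 members, their nearest in level, the pairs bracketing each mir-181 pair, and the highest of each marker list. Extreme pairs, leading genes of a class, such as Mir125b-2 and Mirlet7f-2, and the mir-124 genes were named after their values were seen. The list entries Mir9-1, Mir142 and Mir146a were not analysed here. Members and lists were chosen with earlier results of these data known.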

Additional observations from a re-analysis of the deposited data

Results flagged for a closer look

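Reads that mapped to several places entered no comparison and numbered 4391928 in replicate 2 and 4816290 in replicate 1, far above the 3 reads that a count of 0 allows. The tables do not list them by gene.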

How the results depend on the processing

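TMM and RLE scaling moved the level of each of the 6 genes by less than its SD. The factors of either method were 1.017 for replicate 1 and 0.983 for replicate 2. They lie on opposite sides of 1, so a mean over both libraries could hardly move. With the most abundant gene left out of the library size, levels were 20223 CPM for Mir181c, 8955 for Mir181d, 6796 for Mir181a-1, 1506 for Mir181b-2 and 292 for Mir181a-2. With reads on either strand, Mir181a-1 stood at 5286 CPM and Mir181d at 6966 CPM, since the total grew. With all mapped reads as the denominator the family held 1.59%. By the exact test of edgeR with the BCV set to 0.2 or 0.1, 0 and 0 of the 6 genes and 6 and 9 of all genes passed, against 5 and 195 by the exact binomial test. By TMM library sizes 4 of the 6 and 185 of all 411 passed, and by RLE sizes likewise 4 and 185. Without either replicate, cluster shares ran from 76.9% to 77.5% for chromosome 8, 17.3% to 18.7% for chromosome 1 and 4.33% to 5.18% for chromosome 2. With pairs within 2000 bases, chosen after seeing the data, 60, 45 and 1 of 77 other pairs with 10 or more reads for both genes exceeded the Mir181c, Mir181a-2 and Mir181a-1 pairs. With no minimum of reads within 1000 bases, also chosen after seeing the data, 102, 79 and 22 of 126 did. No paired analysis was possible because the libraries form 1 group. Depth limits Mir181b-1 most, at 38 and 67 reads in replicates 2 and 1.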
